A study of Mus musculus with 18 samples.

Results

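The regulators of G protein signalling described here are 7 mouse genes, Rgs2, Rgs3, Rgs4, Rgs5, Rgs10, Rgs16 and Rgs19. They were taken by gene symbol: every probe set (the group of short probes that reads out a transcript on the array) annotated to a single gene with that symbol was kept. This gave 19 of the 22690 probe sets in the table, and 16 of the 19 had a log2 value above 4 in at least 3 of the 18 samples. All 7 genes were among the 7093 genes tested, since each had at least 1 such probe set, and the brightest stood for the gene. The study measured RNA in aortas of male wild type C57Bl/6 mice on 1-colour Affymetrix arrays. All animals had first received spironolactone, which blocks the mineralocorticoid receptor, from a pellet under the skin at 20 mg/kg/day for 5 days. The excised aortas were then kept in organ culture in DMEM with 100 nM aldosterone, the hormone that activates this receptor, or with vehicle, for 2, 4 or 8 h. Each of the 6 groups (aldosterone 2 h, 4 h and 8 h, and vehicle 2 h, 4 h and 8 h) held 3 samples, and each sample was a pool of 3 aortas. All groups share the antagonist and the culture, no uncultured aorta was analysed here, and the animals' age is not given in the sources used here.

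RGS proteins switch G protein signals off. A receptor bound by its ligand loads GTP onto the G protein's alpha subunit, and an RGS protein speeds the hydrolysis of that GTP, so the signal from the receptor ends sooner. In arteries the receptors for angiotensin II, endothelin and noradrenaline contract smooth muscle largely through Gq, and mice without Rgs2, which acts preferentially on Gq, have high blood pressure. Rgs5 is a known marker of pericytes and arterial smooth muscle, Rgs4 and Rgs16 are small relatives that act on Gi and Gq, Rgs10 is best known from immune cells, and Rgs19, also called GAIP, was found through its binding to a Gi alpha subunit.

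Of the 7 genes, Rgs2 and Rgs4 had the largest falls in culture, and the sequences before their transcription starts are shown for that reason. They come from RefSeq on the mouse build GRCm38.p6, run 5′ to 3′ on the strand of the gene, end at the base before the start, and carry in capitals each match, on either strand, to TGACG, the core of the cyclic AMP response element. The Rgs2 stretch lies at chr1:144004150-144004399 and the Rgs4 stretch at chr1:169747643-169747892, both on the minus strand.
Rgs2: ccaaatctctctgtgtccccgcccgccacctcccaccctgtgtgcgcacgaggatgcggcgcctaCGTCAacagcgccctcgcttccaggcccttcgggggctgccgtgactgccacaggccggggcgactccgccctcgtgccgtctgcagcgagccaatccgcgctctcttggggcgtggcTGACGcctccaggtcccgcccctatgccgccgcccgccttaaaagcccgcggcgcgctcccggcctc
Rgs4: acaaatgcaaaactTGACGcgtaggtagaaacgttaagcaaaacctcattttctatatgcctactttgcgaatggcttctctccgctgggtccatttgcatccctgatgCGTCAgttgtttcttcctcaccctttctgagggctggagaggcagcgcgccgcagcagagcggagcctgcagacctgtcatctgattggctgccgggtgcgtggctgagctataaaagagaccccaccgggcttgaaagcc
In the 250 bases before its start, Rgs2 had matches beginning 185 and 67 bases before the start, and Rgs4 had them at 236 and 141 bases. These were 2 of the 10 RefSeq promoters listed for the 7 genes, and the other 8 had no match. Among 32851 mouse promoters of the same length, 17.8% held at least 1 match and 3.9% at least 2. A match in 2 of 10 promoters is near the first of these shares, and both of those promoters held 2. The 15-letter palindrome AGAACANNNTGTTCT, to which the mineralocorticoid and glucocorticoid receptors can bind, was in 0 of the 10 and in 3 of the 32851. A motif this rare would be absent from nearly any 10 promoters, so its absence says nothing particular about these genes. The TGACG matches describe letters in a window and were not tested for binding or for a part in the falls.

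Values below are the deposited GCRMA log2 expression estimates, so a difference of 1 is a doubling or halving of the estimate. Differences are given as log2 ± SE, from limma fitted to all 18 samples, with adjusted p-values by Benjamini-Hochberg over the 7093 genes and a threshold of 0.05. The first principal component held 65.2% of the variance and separated the times without overlap, with scores of -47.6 to -43.7 at 2 h, -3.11 to 2.97 at 4 h and 42.9 to 48.2 at 8 h over both treatments. Vehicle 2 h replicate 1 stood apart, with a median log2 value of 4.42 against 4.01 to 4.09 in the other 17 samples, and in 908 genes it lay more than 1 from the mean of its group mates, against 17 to 239 genes in the other samples. All 9 smooth muscle markers passed the filter against dim values, and so did 4 of 7 adipocyte and 4 of 6 cardiac muscle markers. In whole aorta, fewer cells of a type and less RNA per cell cannot be told apart.

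Rgs2, the Gq-directed member, was highest at 2 h and fell at each later time in both treatments. The aldosterone samples read 10.02, 10.31 and 9.66 at 2 h, 8.44, 8.73 and 8.94 at 4 h, and 7.93, 8.16 and 7.96 at 8 h. The vehicle samples read 10.03, 9.38 and 9.13 at 2 h, 8.45, 7.97 and 8.60 at 4 h, and 7.44, 7.55 and 7.63 at 8 h. Within each treatment, no sample of a later time reached any sample of an earlier one. In aldosterone, Rgs2 at 4 h was 2.45-fold lower than at 2 h (-1.29 ± 0.22, adjusted p = 0.000231), and at 8 h 1.61-fold lower than at 4 h (-0.69 ± 0.22, adjusted p = 0.0193). With vehicle the falls were 2.26-fold between 2 and 4 h (-1.18 ± 0.22, adjusted p = 0.000476) and 1.74-fold between 4 and 8 h (-0.80 ± 0.22, adjusted p = 0.00826). The second aldosterone step did not pass in a fit without aldosterone 4 h replicate 2 (adjusted p = 0.0525) or 3 (0.0847), or without aldosterone 8 h replicate 1 (0.06) or 3 (0.0593).

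At every time the Rgs2 mean was higher with aldosterone than with vehicle, though no difference at a single time passed the test. The difference was 0.48 ± 0.22 at 2 h (adjusted p = 0.43), 0.37 ± 0.22 at 4 h (adjusted p = 1) and 0.47 ± 0.22 at 8 h (adjusted p = 0.779). At 8 h all 3 aldosterone samples lay above all 3 vehicle samples, whereas at 2 and 4 h the groups overlapped. Averaged over the 3 times the difference was 0.44 ± 0.13, or 1.36-fold, with a 95% interval of 0.17 to 0.71 (adjusted p = 0.148). The F test of differences between the 3 times did not pass (adjusted p = 0.999). A second Rgs2 probe set, 1419247_at, gave 0.60 ± 0.12 for the same average, past the threshold in a fit of all 11244 probe sets (adjusted p = 0.019). On that probe set the aldosterone samples were 7.65, 8.02 and 7.94 at 8 h, against 7.28, 7.48 and 7.01 in vehicle. There the groups were also apart at 4 h, at 8.60 to 8.92 in aldosterone against 7.86 to 8.54 in vehicle, but overlapped at 2 h. The call for Rgs2 therefore depends on the probe set read. It also depends on vehicle 2 h replicate 1, the sample that stood apart and the highest Rgs2 value of its group: without it the average was 0.53 (adjusted p = 0.0115).

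**Figure D1:**
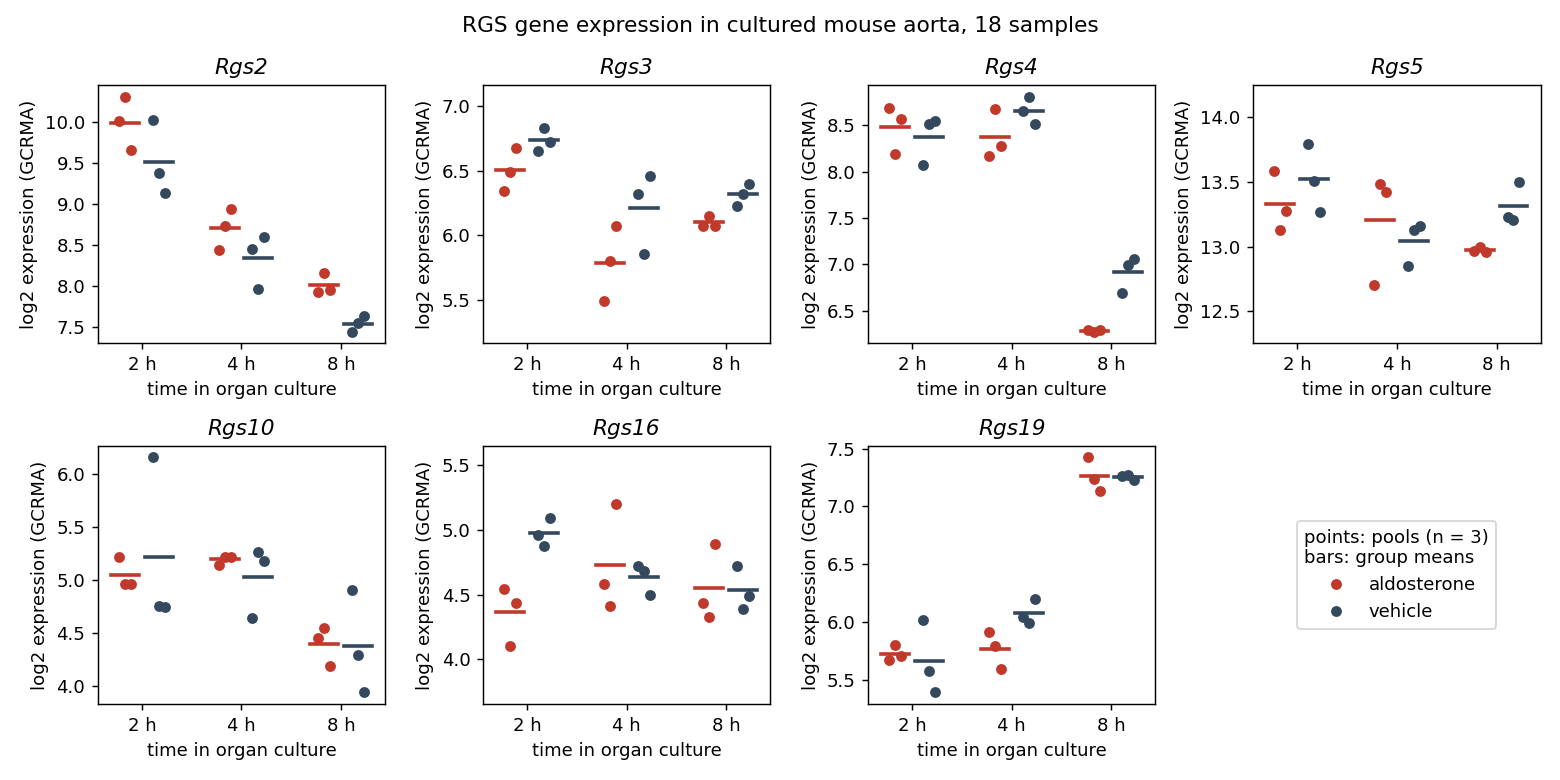
Log2 expression (vertical axes, GCRMA) of the 7 RGS genes in all 18 samples by hours in culture (horizontal axes), with aldosterone in red on the left of each pair and vehicle in blue on the right. Points are pools of 3 aortas and bars are means of 3 pools, and each panel has its own vertical range. Rgs2 steps down at each time, and Rgs4 drops and Rgs19 climbs between 4 and 8 h. Rgs5 moves little on the probe set drawn, 1417466_at.

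Rgs4, which acts on Gi and Gq, showed no change past the threshold from 2 to 4 h and then fell steeply. The aldosterone samples were 8.68, 8.19 and 8.57 at 2 h, 8.17, 8.68 and 8.27 at 4 h, and 6.29, 6.27 and 6.29 at 8 h. In vehicle the values were 8.07, 8.51 and 8.55 at 2 h, 8.65, 8.81 and 8.51 at 4 h, and 6.69, 6.99 and 7.06 at 8 h. Every 8 h sample was thus lower than every 2 h and 4 h sample. Rgs4 fell 4.26-fold with aldosterone (-2.09 ± 0.17, adjusted p = 1.24e-07) and 3.35-fold with vehicle (-1.74 ± 0.17, adjusted p = 8.64e-07) from 4 to 8 h. The change between 2 and 4 h was -0.11 ± 0.17 with aldosterone (adjusted p = 0.67) and 0.28 ± 0.17 with vehicle (adjusted p = 0.213).

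The 3 aldosterone samples at 8 h lay below the 3 vehicle samples, and spanned only 6.27 to 6.29. The difference there was -0.63 ± 0.17, or 1.55-fold lower with aldosterone, with an interval of -0.99 to -0.27. After adjustment over all genes it did not pass (adjusted p = 0.143). It passed without vehicle 2 h replicate 1 (-0.63, adjusted p = 0.0415), a sample of another time that enters only through the shared estimate of spread, and with weights given to each array (-0.66, adjusted p = 0.00626). At 2 h the difference was 0.10 ± 0.17 (adjusted p = 0.856) and at 4 h -0.28 ± 0.17 (adjusted p = 1). The F test of differences between times did not pass (adjusted p = 0.753). Probe set 1416287_at also separated the groups at 8 h, with 5.14, 5.23 and 5.39 in aldosterone against 5.91, 5.77 and 5.96 in vehicle (-0.63 ± 0.29, adjusted p = 0.75). Its differences were -0.42 ± 0.29 at 2 h (adjusted p = 0.616) and -0.18 ± 0.29 at 4 h. The sign at 2 h was thus opposite to that of the brighter probe set, and the difference did not grow steadily with time. The third, 1448285_at, was dim, and its difference at 8 h was 0.18 ± 0.24 (adjusted p = 1).

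Rgs5, the smooth muscle and pericyte marker, stayed between 12.70 and 13.80 in the 18 samples. The aldosterone values were 13.58, 13.13 and 13.28 at 2 h, 12.70, 13.48 and 13.42 at 4 h, and 12.964, 12.998 and 12.955 at 8 h. Those of vehicle were 13.80, 13.50 and 13.27 at 2 h, 12.85, 13.13 and 13.16 at 4 h, and 13.23, 13.21 and 13.50 at 8 h. At 8 h the aldosterone samples all lay below the vehicle samples, and the same held on each of the 3 other Rgs5 probe sets. The differences at 8 h on the 4 probe sets were -0.34 ± 0.18 (1417466_at, adjusted p = 0.894), -0.69 ± 0.25 (1420940_x_at, adjusted p = 0.455), -0.50 ± 0.21 (1420941_at, adjusted p = 0.601) and -0.42 ± 0.28 (1420942_s_at, adjusted p = 1), so none passed. These probe sets read the same RNA of the same samples and are not replicates, and the suffixes _x_at and _s_at mark probes that can also match other transcripts. Between 2 and 4 h Rgs5 changed by -0.13 ± 0.18 with aldosterone (adjusted p = 0.63). With vehicle it fell 1.39-fold over that step (-0.48 ± 0.18, adjusted p = 0.0429), a call lost in 18 of 29 alternative settings, among them 10 of the 18 fits without a sample, with adjusted p up to 0.162. Later, from 4 to 8 h, the aldosterone change was -0.23 ± 0.18 (adjusted p = 0.342), and -0.48 (adjusted p = 0.0268) without aldosterone 4 h replicate 1, the lowest of its group.

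Rgs3, a longer relative that acts on Gi and Gq, fell between 2 and 4 h. With aldosterone it read 6.34, 6.49 and 6.68 at 2 h, 5.49, 5.80 and 6.07 at 4 h, and 6.07, 6.15 and 6.07 at 8 h. With vehicle it read 6.65, 6.83 and 6.72 at 2 h, 6.32, 5.86 and 6.46 at 4 h, and 6.23, 6.32 and 6.40 at 8 h. The 4 h samples lay below the 2 h samples in both treatments. The fall was 1.64-fold with aldosterone (-0.71 ± 0.17, adjusted p = 0.0041) and 1.43-fold with vehicle (-0.52 ± 0.17, adjusted p = 0.0251). The vehicle fall did not pass without vehicle 2 h replicate 2 (adjusted p = 0.0666) or vehicle 4 h replicate 2 (0.144). From 4 to 8 h the change was 0.31 ± 0.17 with aldosterone (adjusted p = 0.176) and 0.10 ± 0.17 with vehicle (adjusted p = 0.69). The Rgs3 mean was lower with aldosterone at each time, by -0.23 at 2 h, -0.43 at 4 h and -0.22 at 8 h, with -0.29 ± 0.10 on average (adjusted p = 0.312). Only at 8 h were the groups apart. A second, dim probe set (1425701_a_at) gave -0.06 ± 0.14 for that average (adjusted p = 0.945), and the other 2 Rgs3 probe sets did not pass the filter.

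Rgs16, a small inducible member that acts on Gi and Gq, was near the filter level. At 2 h the aldosterone samples were 4.55, 4.11 and 4.44, against 4.96, 4.88 and 5.09 in vehicle, and the groups did not overlap. The difference was -0.61 ± 0.20, with an interval of -1.05 to -0.18 (adjusted p = 0.281). At 4 h the aldosterone values were 4.58, 4.42 and 5.20, against 4.72, 4.68 and 4.50 in vehicle, and at 8 h they were 4.44, 4.33 and 4.89, against 4.72, 4.39 and 4.49. The groups overlapped at both later times, with differences of 0.10 ± 0.20 and 0.02 ± 0.20 (adjusted p = 1 at each). Nor did the F test of differences between times pass (adjusted p = 0.839). A dimmer probe set (1426037_a_at) gave 0.25 ± 0.41 at 2 h (adjusted p = 0.852), where a single aldosterone sample at 5.33 stood above the other two at 3.26 and 3.68. No step in time passed the test for Rgs16 in either treatment.

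Rgs10, the member best known from immune cells, was also near the filter level. With aldosterone it read 5.21, 4.96 and 4.96 at 2 h, 5.14, 5.22 and 5.22 at 4 h, and 4.45, 4.54 and 4.18 at 8 h. With vehicle it read 6.16, 4.76 and 4.75 at 2 h, 4.64, 5.27 and 5.17 at 4 h, and 4.91, 4.29 and 3.94 at 8 h. The value of 6.16 belongs to vehicle 2 h replicate 1. The change from 4 to 8 h was -0.80 ± 0.31 with aldosterone (adjusted p = 0.0517) and -0.65 ± 0.31 with vehicle (adjusted p = 0.113), so neither passed, although the aldosterone groups did not overlap. The aldosterone step passed in 12 of 28 alternative settings, among them the fits without each vehicle 2 h replicate (adjusted p from 0.00537 to 0.0425) and without vehicle 8 h replicate 1 or 3 (0.0412 and 0.0465). The vehicle step passed without vehicle 2 h replicate 1 (adjusted p = 0.0192) or vehicle 8 h replicate 1 (0.0444), and with array weights (-0.54, adjusted p = 0.0352). Aldosterone minus vehicle was -0.17 ± 0.31 at 2 h, 0.17 ± 0.31 at 4 h and 0.01 ± 0.31 at 8 h, and the interval of the average ran from -0.38 to 0.38.

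Rgs19, the Gi-binding GAIP, was the 1 member that rose. It was read on 1434940_x_at, whose suffix marks probes that can also match other transcripts. In aldosterone the values were 5.68, 5.80 and 5.70 at 2 h, 5.91, 5.79 and 5.60 at 4 h, and 7.42, 7.24 and 7.13 at 8 h. The vehicle values were 6.02, 5.58 and 5.39 at 2 h, 6.04, 5.99 and 6.20 at 4 h, and 7.26, 7.27 and 7.23 at 8 h. All 8 h samples were higher than all earlier ones. From 4 to 8 h Rgs19 rose 2.82-fold with aldosterone (1.50 ± 0.16, adjusted p = 2.16e-06) and 2.26-fold with vehicle (1.18 ± 0.16, adjusted p = 2.4e-05). Between 2 and 4 h it gave 0.04 ± 0.16 with aldosterone (adjusted p = 0.879). With vehicle the same step was a rise of 0.42 ± 0.16 (adjusted p = 0.048), although the groups overlapped and the call was lost in 22 of 29 alternative settings. These include 17 of the 18 fits without a sample, with adjusted p up to 0.194. At 4 h the aldosterone samples lay just below the vehicle samples (-0.31 ± 0.16, adjusted p = 1), while at 2 and 8 h the differences were 0.06 ± 0.16 and 0.01 ± 0.16.

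**Figure D2:**
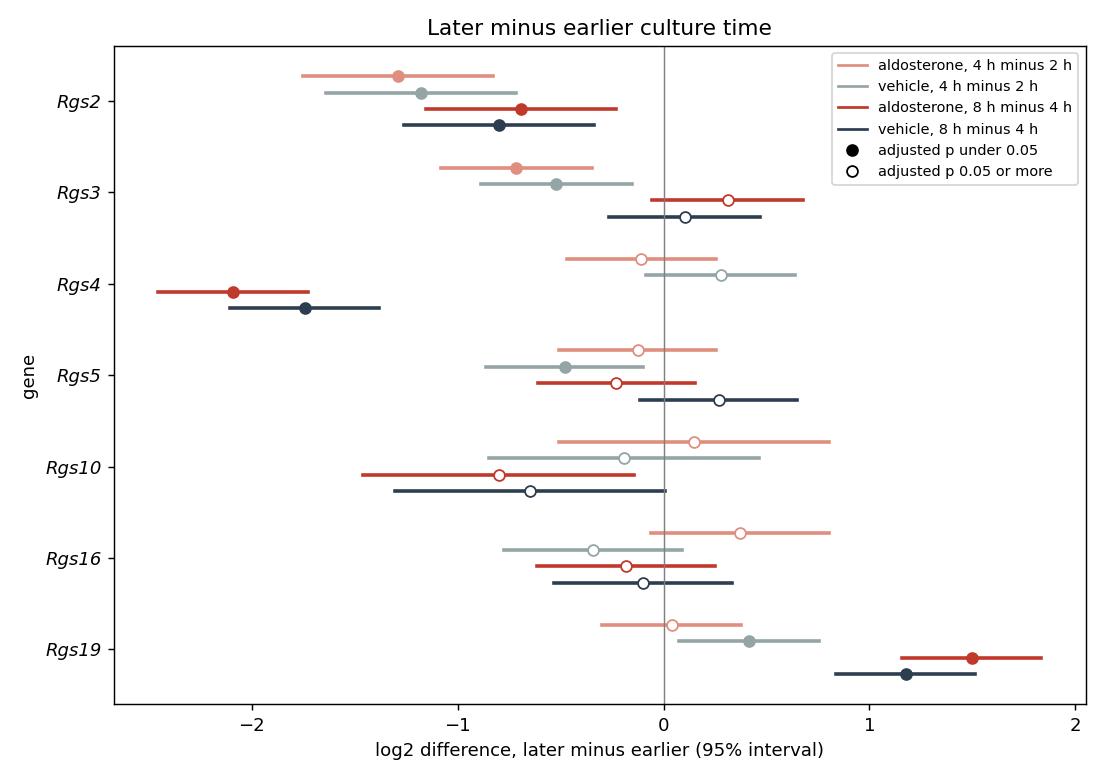
Log2 differences between neighbouring culture times (horizontal axis, later minus earlier) for the 7 RGS genes, with 95% intervals from limma. Filled points have an adjusted p under 0.05. Rgs2 and Rgs4 lie left of 0 and Rgs19 right of 0 from 4 to 8 h in both treatments, with Rgs4 at -2.09 with aldosterone and -1.74 with vehicle.

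Counted over the family, culture time changed 2 to 4 of the 7 genes at each step. Between 2 and 4 h with aldosterone, 2 of 7 changed, both lower (Rgs2 and Rgs3), where 38.6% of all genes changed, 17.3% higher and 21.3% lower. With vehicle 4 of 7 changed, 1 higher (Rgs19) and 3 lower (Rgs2, Rgs3 and Rgs5), where 40.2% of all genes did, 14.6% higher and 25.6% lower. From 4 to 8 h, 3 of 7 changed in each treatment, Rgs2 and Rgs4 lower and Rgs19 higher. Over all genes this step changed 37.6% with aldosterone (21% higher and 16.6% lower) and 37.8% with vehicle (20.7% higher and 17% lower). These shares are near the background, so the counts say nothing particular about the family. The median change of the 7 genes between 2 and 4 h was -0.11 with aldosterone, beside -0.04 over all genes, and -0.34 with vehicle, beside -0.13. At the next step it was -0.23 with aldosterone, beside 0.05 over all genes, and -0.10 with vehicle, beside 0.03. Centring every array on its median removes the shift of -0.13 over all genes at the vehicle step between 2 and 4 h. Rgs2 and Rgs19 then kept their calls at that step, and Rgs3 (-0.39, adjusted p = 0.0911) and Rgs5 (-0.35, adjusted p = 0.11) did not. The 2 steps of a treatment share its 4 h samples.

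Aldosterone minus vehicle passed for 0 of the 7 genes at 2 h, 4 h and 8 h, for the average and for differences between times (limma). Over all genes, 0.0705% passed at 2 h, 0.24% at 4 h, 1% at 8 h, 1.1% for the average and 0.155% for differences between times. At an unadjusted p under 0.05 the counts were 2 (Rgs2 and Rgs16) at 2 h, 1 (Rgs3) at 4 h, 2 (Rgs2 and Rgs4) at 8 h, 3 (Rgs2, Rgs3 and Rgs4) for the average and 2 (Rgs4 and Rgs16) for differences between times. The shares of all genes at that level were 11%, 3.76%, 6.26%, 8.43% and 5.91% in the same order. Samples of the 2 treatments did not overlap in 1 of 7 genes at 2 h (Rgs16) and 1 of 7 at 4 h (Rgs19), where 13.9% and 10.6% of all genes did so. At 8 h they did not overlap in 4 of 7 genes, Rgs2 higher and Rgs3, Rgs4 and Rgs5 lower, where 14.5% of all genes did so. The median difference of the 7 genes was -0.17 at 2 h, 0.10 at 4 h and 0.01 at 8 h, beside -0.07, 0.01 and 0.01 over all genes.

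**Figure D3:**
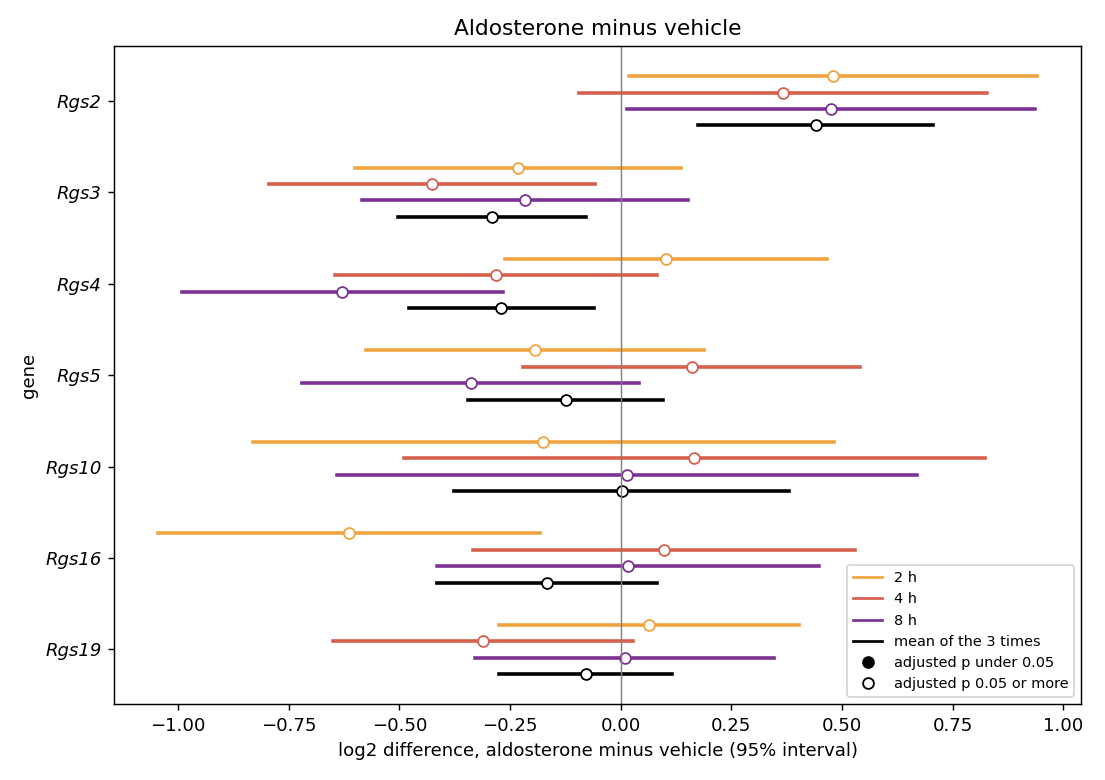
Log2 difference between aldosterone and vehicle (horizontal axis, aldosterone minus vehicle) for the 7 RGS genes at 2, 4 and 8 h and averaged over the 3 times, with 95% intervals from limma. All points are open because none had an adjusted p under 0.05. Rgs2 lies right of 0 at each time (0.48, 0.37 and 0.47). Rgs4 moves left with time on the probe set drawn (0.10, -0.28 and -0.63), but not steadily on 1416287_at, which is not drawn (-0.42, -0.18 and -0.63).

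Probe sets of the same gene differed in how closely they followed each other. For Rgs2 the root-mean-square difference between the 2 probe sets, after centring each on its mean, was 0.20 over 18 samples. For Rgs5 it was 0.14 between 1417466_at and 1420941_at, and 0.30 to 0.39 for pairs that hold 1420940_x_at. In Rgs4 the 2 brighter probe sets differed by 0.38, and the dim 1448285_at by 0.57 and 0.63 from them. On 1416287_at, Rgs4 also fell between 4 and 8 h, by 2.09 with aldosterone (-2.09 ± 0.29, adjusted p = 3.59e-05) and by 1.64 with vehicle (-1.64 ± 0.29, adjusted p = 0.000342). The second Rgs19 probe set, 1417786_a_at, rose over the same step by 2.33 ± 0.46 with aldosterone (adjusted p = 0.000814) and 1.88 ± 0.46 with vehicle (adjusted p = 0.00415). Its group means at 2 and 4 h were 4.03 to 4.56, near the filter level of 4. The root-mean-square difference between the 2 Rgs19 probe sets was 0.58. For Rgs5, 1420940_x_at rose between 4 and 8 h with vehicle (0.90 ± 0.25, adjusted p = 0.0106), whereas 1417466_at, which stands for the gene, gave 0.27 ± 0.18 (adjusted p = 0.261).

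**Figure D4:**
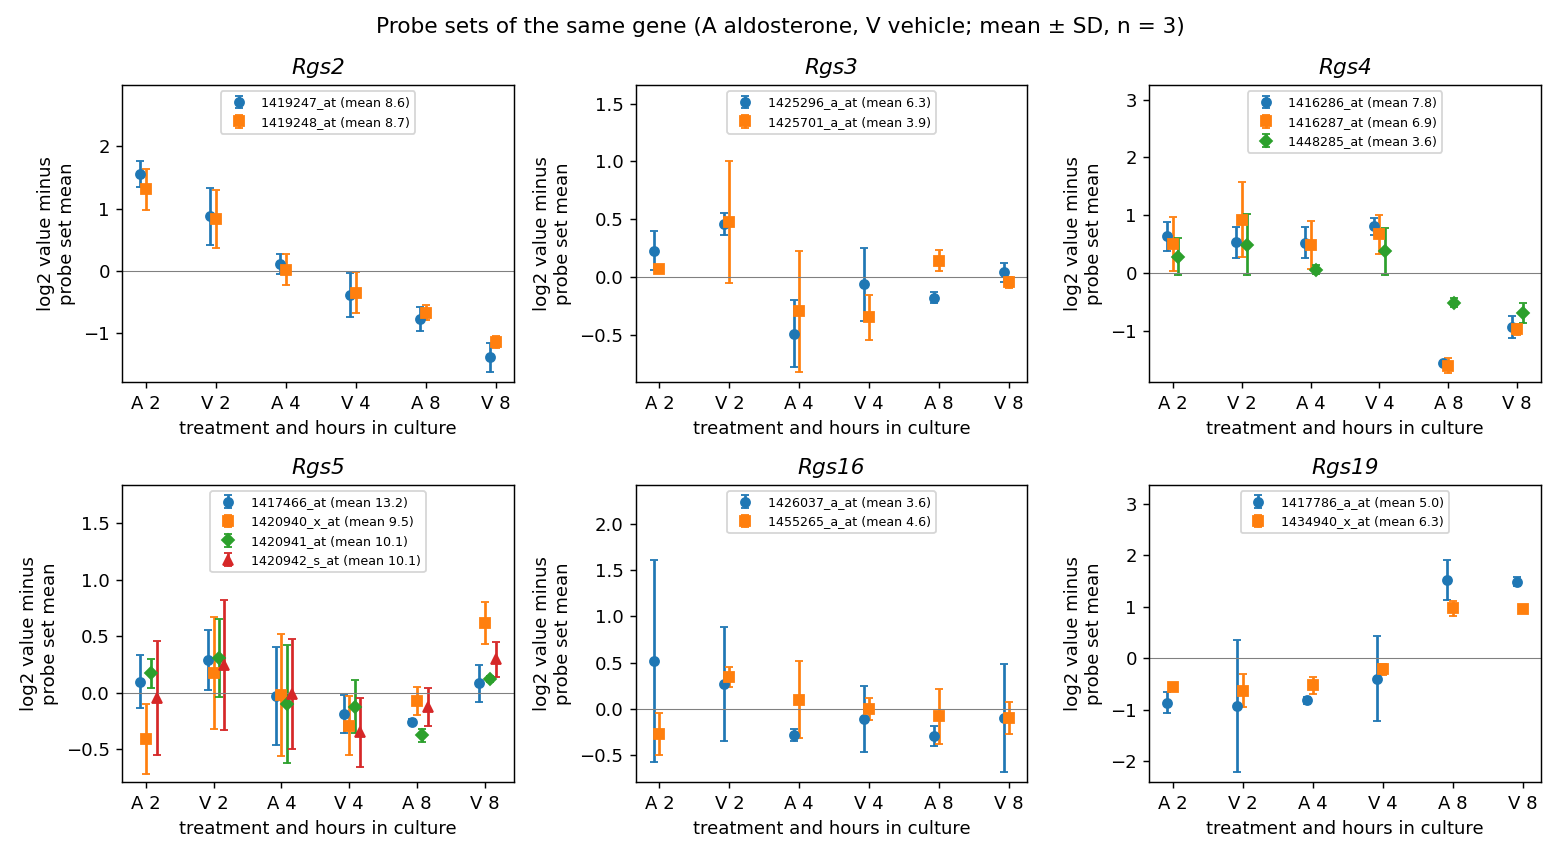
Group means ± SD (n = 3) of each probe set past the filter for the 6 RGS genes with more than 1, as log2 value minus the probe set's mean over 18 samples (vertical axes), by treatment and hours (horizontal axes). The 2 Rgs2 probe sets step down together but do not coincide, and those of Rgs4 and Rgs19 turn the same way at 8 h with different sizes. Legends give each probe set's mean log2 value.

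The 7 genes differed in how close their patterns lay to each other. Among the 21 pairs of members, Rgs3 and Rgs5 were closest (root-mean-square difference 0.31 over 18 samples, after centring) and Rgs4 and Rgs19 farthest apart (1.60). Over all tested genes, Rgs2 was nearest to Rpa1, a subunit of the replication protein that binds single-stranded DNA (0.27), and Sspn, the membrane protein sarcospan (0.29). Rgs4 was nearest to the kinase gene Stk17b (0.24) and the growth factor receptor gene Fgfr2 (0.29). For Rgs19 they were Nubp1 (0.17), of iron-sulphur cluster assembly, and Sat1 (0.18), which acetylates polyamines. Rgs3 lay nearest to Gtf2h4 (0.21) and Plxnd1 (0.22), Rgs5 to Drap1 (0.18) and Macir (0.19), Rgs10 to Id3 (0.22) and Ctsf (0.24), and Rgs16 to Rom1 (0.17) and Slc25a29 (0.18). Rgs5 and Rgs16 varied little between samples, which by itself keeps such distances small.

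Other genes of the pathway were read from fixed lists. Of 14 other RGS genes, 10 had a probe set and 3 passed the filter, Rgs7, Rgs14 and Rgs18. Rgs7, known from neurons, fell between 2 and 4 h (-1.56 with aldosterone, adjusted p = 0.000656, and -2.30 with vehicle, adjusted p = 1.75e-05). The later step was 0.76 with aldosterone (adjusted p = 0.0533) and a rise of 1.74 with vehicle (adjusted p = 0.000218). Rgs18, known from platelets and their precursors, fell between 2 and 4 h in both treatments (-0.81 with aldosterone, adjusted p = 0.0373, and -1.13 with vehicle, adjusted p = 0.00576), and again between 4 and 8 h with aldosterone (-0.92, adjusted p = 0.021, against -0.51 with vehicle, adjusted p = 0.189). Rgs14 passed in none of the comparisons of times. Of the 3 genes, 0 rose and 2 fell between 2 and 4 h in each treatment, and between 4 and 8 h 0 rose and 1 fell with aldosterone, while 1 rose and 0 fell with vehicle. Over all genes, 38.6% changed with aldosterone and 40.2% with vehicle at the first step, and 37.6% with aldosterone and 37.8% with vehicle at the second. No other RGS gene passed for aldosterone against vehicle.

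Receptor kinases and other regulators of receptors and G proteins had 10 of 19 listed genes tested. Grk5, a kinase that marks active receptors for arrestin, rose at both steps, by 1.30 and 0.95 with aldosterone (adjusted p = 0.000104 and 0.00134) and by 1.29 and 1.02 with vehicle (adjusted p = 0.000105 and 0.000771). Its relative Grk6 rose between 4 and 8 h, by 1.18 with aldosterone and 0.85 with vehicle (adjusted p = 0.000126 and 0.00198). Gpsm2, which holds Gi alpha subunits in their GDP form, fell between 2 and 4 h (-2.14 with aldosterone, adjusted p = 1.32e-05, and -2.26 with vehicle, adjusted p = 7.12e-06). In the list as a whole, 2 rose and 1 fell between 2 and 4 h with aldosterone and 2 rose and 3 fell with vehicle. Over all genes 17.3% rose and 21.3% fell with aldosterone, and 14.6% and 25.6% with vehicle. At the next step 5 rose and 2 fell with aldosterone, beside 21% and 16.6% of all genes, and 3 rose and 1 fell with vehicle, beside 20.7% and 17%.

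Among the G protein subunits, 15 of 22 listed genes were tested. Between 2 and 4 h 2 rose and 5 fell with aldosterone (17.3% and 21.3% of all genes), and 0 rose and 8 fell with vehicle (14.6% and 25.6%). The step from 4 to 8 h had 2 higher and 3 lower in each treatment, where 21% and 16.6% of all genes were called with aldosterone and 20.7% and 17% with vehicle. The gamma subunit gene Gng11 fell over the first step (-1.02 with aldosterone, adjusted p = 0.000144, and -1.10 with vehicle, adjusted p = 6.92e-05). The Gi alpha gene Gnai2 fell over the second step (-0.60 with aldosterone, adjusted p = 0.000326, and -0.64 with vehicle, adjusted p = 0.000188). The beta subunit gene Gnb2 rose over the same step (0.90 with aldosterone, adjusted p = 0.0118, and 1.14 with vehicle, adjusted p = 0.00237).

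Receptors of the vessel wall had 10 of 42 listed genes tested, the others having no named probe set or being too dim. P2ry6, a Gq-coupled receptor for UDP, rose between 2 and 4 h (1.02 with aldosterone and 1.57 with vehicle, adjusted p = 0.00259 and 6.8e-05). Ptger4, the Gs-coupled prostaglandin E2 receptor EP4, and F2r, the thrombin receptor, fell between 4 and 8 h. For Ptger4 the change was -1.15 with aldosterone (adjusted p = 1.69e-05) and -1.04 with vehicle (adjusted p = 4.73e-05). For F2r it was -0.88 with aldosterone (adjusted p = 0.000162) and -0.66 with vehicle (adjusted p = 0.00183). Counts between 2 and 4 h were 2 higher and 2 lower with aldosterone (all genes 17.3% and 21.3%), and 2 higher and 3 lower with vehicle (14.6% and 25.6%). For 4 to 8 h they were 2 higher and 4 lower with aldosterone (all genes 21% and 16.6%), and 2 higher and 5 lower with vehicle (20.7% and 17%).

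Effectors had 24 of 35 listed genes tested. Prkca, the protein kinase C activated downstream of Gq, rose between 2 and 4 h (2.70 with aldosterone and 2.08 with vehicle, adjusted p = 1.97e-06 and 2.85e-05). The adenylate cyclase gene Adcy7 fell between 4 and 8 h (-1.34 with aldosterone, adjusted p = 2.35e-06, and -1.08 with vehicle, adjusted p = 2.03e-05). In all, 1 rose and 10 fell between 2 and 4 h with aldosterone, where 17.3% of all genes rose and 21.3% fell. With vehicle 1 rose and 15 fell, where 14.6% of all genes rose and 25.6% fell. Later, 3 rose and 9 fell from 4 to 8 h in each treatment, beside 21% and 16.6% of all genes with aldosterone and 20.7% and 17% with vehicle. Across all 5 lists a single gene passed for aldosterone against vehicle, Kcnj8 at 8 h (1.15, adjusted p = 0.0403), a pore subunit of the ATP-sensitive potassium channel of vascular muscle and pericytes. It was 1 of the 24 effectors tested, and 1% of all genes passed at 8 h.

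Cell type markers moved over the same hours as the RGS genes. The mean log2 level of the 9 smooth muscle markers was 10.87 to 10.95, 10.38 to 10.72 and 9.77 to 10.09 at 2, 4 and 8 h with aldosterone, and 10.73 to 10.87, 10.46 to 10.65 and 9.85 to 10.24 with vehicle. Between 4 and 8 h 6 of the 9 fell and 1 rose in each treatment, where 16.6% of all genes fell and 21% rose with aldosterone and 17% fell and 20.7% rose with vehicle. The 7 pericyte markers ranged from 8.41 to 8.60 at 2 h and 7.04 to 7.44 at 8 h with aldosterone, and from 8.42 to 8.62 and 7.14 to 7.46 with vehicle. Macrophage markers, 9 of 9 tested, ran from 6.90 to 7.17 at 2 h, 5.79 to 6.55 at 4 h and 5.40 to 5.66 at 8 h with aldosterone, and from 6.77 to 7.70, 6.04 to 6.55 and 5.14 to 5.58 with vehicle. The 7 fibroblast markers lay at 10.91 to 11.18 at 2 h, 10.46 to 10.96 at 4 h and 9.75 to 9.95 at 8 h with aldosterone, and at 10.92 to 11.48, 10.48 to 10.76 and 9.55 to 9.91 with vehicle. Of these, 7 fell between 4 and 8 h with aldosterone and 6 with vehicle, beside the 16.6% and 17% of all genes given above. The 8 tested endothelial markers had a median change of -0.70 between 2 and 4 h with aldosterone and -0.71 with vehicle, with 4 lower and 1 higher in each, and of 0.10 with aldosterone and -0.07 with vehicle at the next step. The 4 tested adipocyte markers changed at the first step by a median of -0.93 with aldosterone (3 lower) and -1.21 with vehicle (4 lower). Over all genes, 21.3% fell and 17.3% rose at the first step with aldosterone, and 25.6% fell and 14.6% rose with vehicle. The 3' minus 5' signal of the Gapdh control, a measure of RNA integrity, was 0.574 to 0.673 at 2 h, 0.462 to 0.746 at 4 h and 0.448 to 0.491 at 8 h with aldosterone, and 0.559 to 0.645, 0.49 to 0.79 and 0.355 to 0.528 with vehicle. In each treatment its 2 h and 8 h values did not overlap. Those of the actin control did overlap, at 1.77 to 1.88 and 1.72 to 1.82 with aldosterone, and 1.63 to 2.11 and 1.51 to 2.02 with vehicle. The part of these shifts in the changes of the RGS genes over time was not tested. The mean levels of the smooth muscle, pericyte, macrophage and fibroblast lists were lower at 8 h than at 2 h, and Rgs19 was higher. These lists do not cover every cell type, and the part of cell composition in the rise of Rgs19 was not tested.

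Between treatments, at 8 h, no smooth muscle marker passed in either direction and their median was -0.13. Of the pericyte markers 1 of 7 was higher (Kcnj8), with a median of -0.21, and of the macrophage markers 1 of 9 was higher (Mrc1, the mannose receptor, 1.27, adjusted p = 0.0335), with a median of 0.01. Both markers are named because they passed, and 1% of all genes passed at 8 h. The 4 tested adipocyte and 4 tested cardiac muscle markers had medians of 0.56 and 0.92, and none passed. The cardiac value rests on aldosterone 8 h replicate 3, whose mean over the 4 markers was 6.58, against 4.74 and 4.59 in the other aldosterone samples and 4.22 to 4.66 in vehicle. Without that pool the cardiac median was 0.21, and the differences at 8 h were 0.50 for Rgs2 (adjusted p = 0.945) and -0.63 for Rgs4 (adjusted p = 0.352). The 3' minus 5' Gapdh values of the treatments overlapped at 8 h. For the actin control they were 1.72 to 1.82 in aldosterone and 1.51 to 2.02 in vehicle. The part of these differences in the 8 h values of Rgs2 and Rgs4 was not tested.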

How the data were processed

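RNA of 18 pooled aorta samples was measured on Affymetrix arrays. Per the submitters' processing notes the authors used GCRMA, and the deposited values are its log2 expression estimates. The sources used here give no GCRMA version or settings, and scanner files were not used here. Of 22690 probe sets, 64 were controls, 20393 had 1 gene in the platform annotation, 691 several and 1606 none, and 20364 of the 1-gene sets matched RefSeq. Probe sets with a log2 value above 4 in at least 3 samples were kept (11244), and the brightest stood for its gene (7093 genes).

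In limma 3.58.1 (R 4.3.3), a model of the 6 group means was fitted across the 18 arrays with an intensity-dependent prior. It left 12 residual degrees of freedom, so each SE rests on a spread shared by all groups. Benjamini-Hochberg adjustment ran over all genes, or over all probe sets for second probe sets. No 2 samples were duplicates, the smallest root-mean-square difference being 0.252 over 153 pairs. The code was tested on simulated data. The 3 pools per group limit the precision. Alternatives covered the prior, filter, probe set choice, normalization, array weights, a replicate term, the groups fitted and leaving out each sample.

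Besides the 7 RGS genes, the text names for each the 2 genes nearest by root-mean-square difference, list members that passed between treatments, and up to 3 of each list with the smallest p per time step. The members and all lists were chosen with earlier results of these data known.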

Additional observations from a re-analysis of the deposited data

Results flagged for a closer look

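A dim Rgs3 probe set, 1425701_a_at, moved in opposite directions at 2 and 8 h. At 2 h the aldosterone samples (3.90, 3.95 and 3.94) all lay below the vehicle samples (4.95, 3.99 and 4.07), a difference of -0.41. At 8 h they (3.92, 3.99 and 4.09) all lay above the vehicle samples (3.86, 3.82 and 3.77), a difference of 0.19. The F test of differences between times gave an adjusted p of 0.962 over all probe sets, so the opposite signs did not pass. Vehicle 2 h replicate 1, the sample that stands apart, holds the value of 4.95, and nearly all values lie at or under the filter level of 4. The brighter Rgs3 probe set gave -0.23 and -0.22 at these times.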

How the results depend on the processing

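Under 29 alternative settings (28 for the average and for differences between times), no difference of an RGS gene that had passed changed sign. The falls of Rgs2 between 2 and 4 h in both treatments and between 4 and 8 h with vehicle, of Rgs3 between 2 and 4 h with aldosterone, and of Rgs4 between 4 and 8 h in both treatments kept their calls in all 29, as did the rise of Rgs19 between 4 and 8 h in both. The number of RGS genes called for aldosterone against vehicle stayed at 0 in all settings at 2 h, at 4 h and for differences between times. At 8 h it was 1 with array weights (Rgs4), and 0 to 1 over fits without a sample, the 1 being without vehicle 2 h replicate 1. For the average it was 1 with probe sets averaged per gene (Rgs2, 0.52, adjusted p = 0.0421), 1 with each array centred on its median (Rgs2, 0.49, adjusted p = 0.0222), 2 with array weights (Rgs2, 0.55, adjusted p = 0.00223, and Rgs4, -0.32, adjusted p = 0.0332), and 0 to 1 without a sample. Array weights gave vehicle 2 h replicate 1 a weight of 0.0864. For vehicle at 4 h against 2 h, where 4 RGS genes passed, the count was 2 with no filter, 2 with probe sets averaged, 2 with quantile normalization, 2 with centring, 1 with only the groups compared, and 1 to 3 without a sample. The cause of these shifts was not tested.

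Over all genes, calls for aldosterone against vehicle at 2 h numbered 5, and 0 to 53 over the alternatives that keep all samples (53 with array weights, 0 with only the groups compared). Without a sample they were 1 (aldosterone 2 h replicate 2) to 29 (vehicle 2 h replicate 1). Leaving out vehicle 2 h replicate 3 gave 26 and leaving out vehicle 8 h replicate 3 gave 9. The count was 3 when the sample left out was replicate 1 of aldosterone at 2 h, replicate 2 or 3 of aldosterone at 4 h, replicate 3 of aldosterone at 8 h, or replicate 2 of vehicle at 2 h. At 4 h they were 17, with 8 to 42, and 5 (without aldosterone 4 h replicate 2) to 32 (without vehicle 2 h replicate 1), with 10 when replicate 1 of aldosterone at 4 h was left out and 8 when replicate 3 of either treatment at 4 h was. At 8 h they were 71, with 57 to 222, and 33 (without aldosterone 8 h replicate 2) to 111 (without vehicle 2 h replicate 1). For the average they were 78, with 61 to 260, and 53 to 146 without a sample, the 146 being without vehicle 2 h replicate 1. Differences between times gave 11, with 8 to 29, and 9 to 15 without a sample. Fitting only the groups compared took the vehicle step from 2 to 4 h to 1330 genes, from 2853.

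Deviations of same-numbered aldosterone and vehicle samples from their group means correlated at -0.19 to 0.28. With 3 pools per group this check cannot decide whether the replicate numbers pair the samples. With the replicate block, the counts of RGS genes were 0 in all 5 aldosterone comparisons, 2 for aldosterone at 4 h against 2 h, 4 for aldosterone at 8 h against 4 h (Rgs10 gained, adjusted p = 0.0469), 3 for vehicle at 4 h against 2 h (Rgs5 lost, adjusted p = 0.0563) and 3 for vehicle at 8 h against 4 h. A filter at 6 left out Rgs10 and Rgs16, so that setting gives them no value. The SE of Rgs10 was 0.31 at each time, against 0.16 to 0.22 for the other 6 genes.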
